A study of Mus musculus with 6 samples.

Results

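Interferon-stimulated genes are the genes that cells switch on when an interferon reaches them. A list of 37 of these genes, chosen by name from well-known members of the class, was followed through the single-cell transcriptomes of mouse CT26 tumors, a colon carcinoma line grown under the skin of female Balb/c mice. All 37 were among the 31053 genes of the count table and all 37 had transcripts in it. The study compared tumors of mice that had received vehicle with tumors of mice given a low or a high dose of an antibody that blocks PD-1 and carries the ligand of the T cell co-stimulatory receptor GITR, with 2 samples in each of 3 groups. The high dose was labelled 30 mg/kg, and the low dose was labelled 10 mg/kg in one place and 30 mg/kg in another. The study's own account of the experiment differs from these labels, as it names an isotype control antibody in place of vehicle and a single dose that is neither of those labelled. Tumors were taken 5 days after treatment, dissociated, and enriched on beads for cells that carry the leukocyte surface protein CD45. Transcripts were counted as unique molecular identifiers (UMIs), each of which stands for 1 captured molecule, in 33961 cells of 4 libraries named M1, M2, M5 and M6. None of these names matched a sample label, so no treatment groups were compared, the libraries were not treated as replicates, and no test was made. The 4 libraries are fewer than the 6 samples, and which samples they hold is not known. Every comparison was made over cell labels or between named libraries, where treatment, animal and preparation cannot be told apart.

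Type I and type III interferons act through receptor pairs that activate a complex with STAT2 and IRF9, which binds a DNA element called ISRE. Interferon-gamma, which T cells and NK cells secrete, acts through another receptor and leads to binding at an element called GAS. Many target genes carry both elements or are induced by IRF1, so the level of a target gene does not by itself say which interferon reached the cell. The products of the 37 genes sense foreign nucleic acid, degrade or mask viral RNA, block virus entry and release, attack vacuoles that hold pathogens, and amplify the response itself.

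Promoter sequences are shown for 7 of the genes because they hold the elements through which these genes are known to be read, and because the genes differ in the results that follow. The sequences end at the base before the annotated start, come from RefSeq on build GRCm38.p6, and are written 5′ to 3′ on the strand of the gene. Capitals mark every match to an ISRE core (GAAANNGAAA) or a GAS core (TTCNNNGAA) on either strand. The windows lie at chr4:156200819-156200983 (minus strand) for Isg15, chr19:34640724-34640888 (plus) for Ifit1, chr19:34583364-34583528 (plus) for Ifit3, chr12:26456453-26456617 (minus) for Rsad2, chr8:71537473-71537637 (minus) for Bst2, chr3:142530171-142530335 (plus) for Gbp7 and chr11:58199391-58199555 (plus) for Igtp.
Isg15: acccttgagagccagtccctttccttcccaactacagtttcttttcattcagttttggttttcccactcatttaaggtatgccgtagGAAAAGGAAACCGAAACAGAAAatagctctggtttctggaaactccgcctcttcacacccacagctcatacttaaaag
Ifit1: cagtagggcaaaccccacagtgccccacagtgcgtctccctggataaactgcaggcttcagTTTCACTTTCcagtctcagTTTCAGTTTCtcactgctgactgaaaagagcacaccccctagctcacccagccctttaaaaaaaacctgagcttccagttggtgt
Ifit3: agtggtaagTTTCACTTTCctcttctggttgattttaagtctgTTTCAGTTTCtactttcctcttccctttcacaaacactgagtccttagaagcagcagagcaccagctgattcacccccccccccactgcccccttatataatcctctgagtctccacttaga
Rsad2: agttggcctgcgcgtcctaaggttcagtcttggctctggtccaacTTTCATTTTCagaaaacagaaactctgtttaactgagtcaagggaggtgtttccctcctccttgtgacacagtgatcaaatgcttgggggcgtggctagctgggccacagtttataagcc
Bst2: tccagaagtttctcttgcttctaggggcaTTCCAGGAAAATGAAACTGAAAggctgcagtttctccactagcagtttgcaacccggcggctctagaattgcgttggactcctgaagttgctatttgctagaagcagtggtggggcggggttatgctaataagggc
Gbp7: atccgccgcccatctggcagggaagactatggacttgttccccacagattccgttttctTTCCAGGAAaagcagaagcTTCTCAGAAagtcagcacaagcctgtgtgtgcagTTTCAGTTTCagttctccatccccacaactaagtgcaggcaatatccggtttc
Igtp: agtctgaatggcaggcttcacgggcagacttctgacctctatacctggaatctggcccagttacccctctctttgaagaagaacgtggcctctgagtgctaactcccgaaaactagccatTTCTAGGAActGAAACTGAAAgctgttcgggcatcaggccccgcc
In Isg15, 3 ISRE cores overlap in a single run of repeats between positions -78 and -57, counted back from the annotated start. Ifit1 holds 2 ISRE cores at -104 and -85, its neighbour Ifit3 holds 2 at -156 and -122, and Rsad2 holds 1 at -120. In Bst2, 2 ISRE cores at -130 and -124 overlap each other, and the first of them also shares bases with a GAS core at -136. The GTPase genes Gbp7 and Igtp carry both elements apart from each other, with GAS cores at -106 and -87 and an ISRE core at -53 in Gbp7, and with a GAS core at -45 and an ISRE core at -34 in Igtp.

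Of the 37 genes, 29 had a window in the RefSeq promoter table, which spans 250 bases before to 50 bases after each start. An ISRE core was present for 18 of the 29 genes (62.1%), beside 3.99% of the 27025 genes of that table. A GAS core was present for 9 of 29 (31.0%), beside 9.55%. All 6 of the GTPase genes with a window had an ISRE core and 3 of the 6 had a GAS core, while among the other 23 genes 12 had an ISRE core and 6 a GAS core. Both cores were found for 7 genes and neither for 9 (Oasl1, Oasl2, Irf7, Irf9, Trim25, Dtx3l, Cmpk2, Ifi44 and Xaf1). A match is a run of letters and was not tested as a binding site. Several of the genes lie close together. These are Ifit1, Ifit2, Ifit3 and Ifit3b on chromosome 19, Gbp2, Gbp3, Gbp5 and Gbp7 on chromosome 3, and Rsad2 and Cmpk2 on chromosome 12. So do Parp9, Parp14 and Dtx3l on chromosome 16, and on chromosome 5 Oas1a, Oas2 and Oas3 and, apart from them, Oasl1 and Oasl2. Members of these groups may not be independent of each other, which was not tested.

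The 4 libraries held 10294, 8940, 7160 and 7567 cells (M1, M2, M5 and M6, the order in which library values are given throughout), and the median cell had 21800.5, 20266, 11399 and 12096 UMIs. The authors had given each cell 1 of 12 labels by its correlation with a reference of sorted mouse immune cells, and 8 labels held at least 500 cells. The largest label, Stroma, took 61.2%, 57.1%, 27.2% and 30.9% of the cells. Its cells carried the fibroblast genes Col1a2, Dcn and Col3a1 at a summed 1307 CPM, that is, UMIs per 1000000 UMIs of the label. Ptprc, which encodes CD45, was at 7.47 CPM, against 463 to 1240 CPM in the other 7 labels, although cells had been enriched for CD45. In the 4 libraries 2848, 2577, 1161 and 1335 Stroma cells, of 6300, 5103, 1946 and 2338, had no UMI of Col3a1. None of the 12 labels names carcinoma cells, and whether Stroma holds them was not tested. The label Myeloid led in the macrophage markers C1qa, Lyz2, Csf1r and Adgre1 (7912 CPM summed) and also held the mast cell genes Cpa3 and Mcpt4 (840 CPM summed). ILC carried the NK cell genes Ncr1, Klrb1c and Eomes at 422, 73.5 and 152 CPM, against 450, 110 and 301 CPM in NK cells. DC held the plasmacytoid genes Siglech and Ccr9 (181 and 191 CPM) beside the classical dendritic cell gene Xcr1 (181 CPM). NKT carried the T cell markers Cd3e, Cd3d and Trac at 1869 CPM summed, beside 1800 CPM in T cell EFF and 1927 CPM in T cell MEM. The NK cell markers Ncr1, Klrb1c and Eomes were at 57.0 CPM summed in NKT. They were at 55.4 CPM in T cell EFF, 80.0 CPM in T cell MEM and 861 CPM in NK cells. Labels are therefore used as the authors' names and not as pure cell types. The libraries shared 111 of 33850 barcodes.

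The 37 genes together made up 0.688% of all UMIs, 6298272 molecules. Myeloid and Stroma held the highest share, at 7938 and 7863 CPM summed over the 37 genes, and NK cells the lowest, at 2134 CPM. Between these ends lay DC at 5251, NKT at 4134, T cell MEM at 3618, ILC at 3099 and T cell EFF at 2911 CPM. Of the smaller labels, B cells (124 cells) lay below NK cells, at 1969 CPM. The exact 95% Poisson interval was 7910 to 7967 CPM for Myeloid and 2119 to 2148 CPM for NK cells, which covers counting error only.

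Libraries differed by far more than counting error, which leaves out the sampling of cells. In Myeloid the sums were 7408, 8240, 8663 and 7608 CPM, and in Stroma they were 6561, 7255, 10647 and 9914 CPM. Myeloid lay above Stroma in M1 and M2 and below it in M5 and M6, so the order of these labels was not fixed. With mitochondrial and ribosomal protein genes left out of the total, Stroma was the higher over all cells, by 0.18 on the log2 scale. In DC the sums were 5289, 5874, 5357 and 4346 CPM, below every library of Myeloid and of Stroma and above every library of the lymphoid labels. NKT held 4186, 3431, 4247 and 4300 CPM and T cell MEM held 3160, 3230, 3931 and 3509 CPM. ILC held 3338, 2780, 3145 and 3050 CPM, T cell EFF 3153, 2419, 3017 and 2956 CPM, and NK cells 2571, 2314, 1927 and 1927 CPM. The ranges of neighbouring lymphoid labels overlapped, although NKT was above T cell MEM, ILC above T cell EFF, and T cell EFF above NK cells within all 4 libraries.

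**Figure D1:**
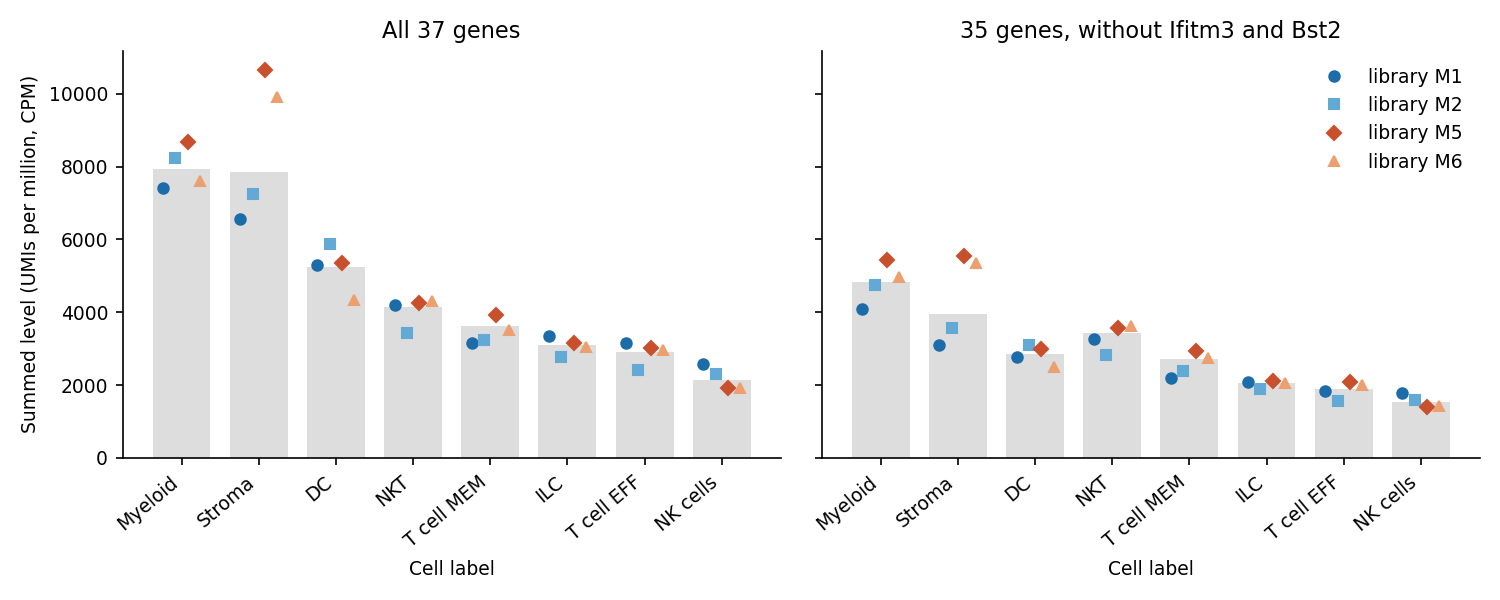
Summed level of the interferon-stimulated genes, in CPM, for the 8 labels with at least 500 cells. Bars give the value over all cells of a label and points the 4 libraries, for all 37 genes on the left and without Ifitm3 and Bst2 on the right. In Stroma libraries M5 and M6 lie at 10647 and 9914 CPM, above M1 and M2 at 6561 and 7255 CPM.

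Much of the sum came from a pair of membrane proteins. Ifitm3, which blocks virus entry in endosomes, and Bst2 (tetherin), which holds budding virus at the cell surface, supplied 47.9% of all UMIs of the list. Without them Myeloid held 4837, Stroma 3938 and NKT 3422 CPM, and DC lay below NKT at 2845 CPM. NK cells remained lowest at 1523 CPM.

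Each gene was assigned to the label in which it was highest. Myeloid was highest for 14 of 37 genes, beside 11.6% of the 9709 genes with at least 10 CPM in any of the 8 labels. Stroma was highest for 10 (beside 30.2%), NKT for 9 (beside 21.7%) and DC for 4 (beside 12.3%). NK cells were lowest for 25, beside 10.4%. The ratio of the highest to the lowest label ran from 1.81 (Parp9) to 11.9 (Iigp1), with a median of 4.34. The highest label was the same within each of the 4 libraries for 17 genes and the lowest label for 11. No share over all genes is set beside these counts, so they are not shown to be particular to the list.

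**Figure D2:**
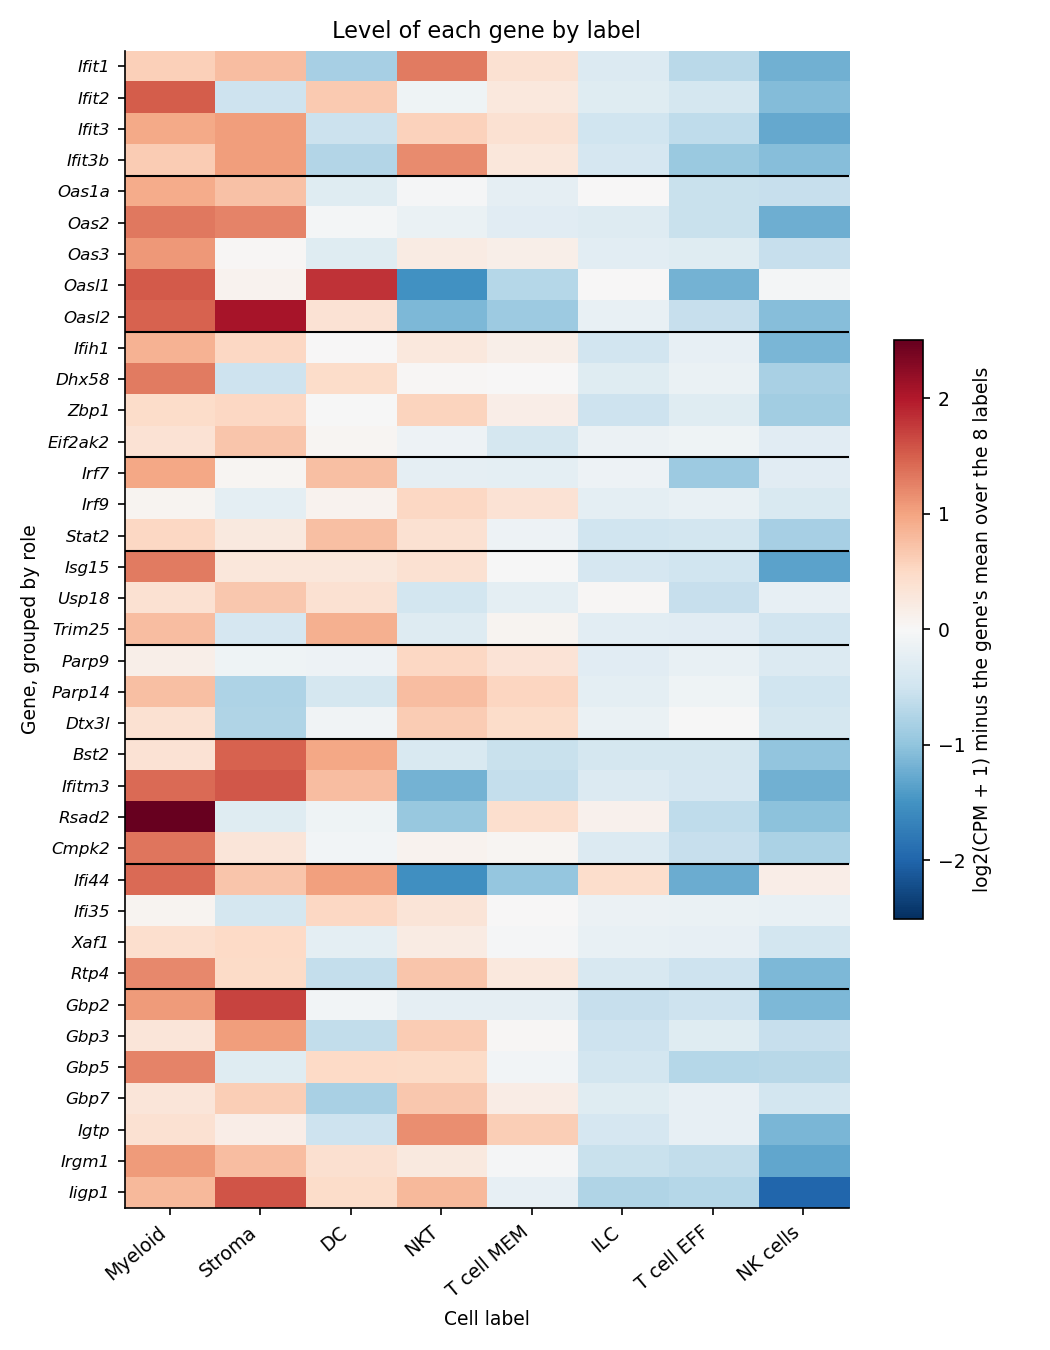
Level of each of the 37 genes in the 8 labels, as log2(CPM + 1) minus that gene's mean over the labels. Red marks labels above the gene's mean and blue those below it, and lines separate the 9 roles. Rsad2 stands out in Myeloid at 370 CPM, Iigp1 is lowest in NK cells at 28.9 CPM, and Parp14 and Dtx3l are lowest in Stroma.

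Among the IFIT genes, whose products bind viral RNA and hold back its translation, Ifit1 was the most abundant. Its level in NKT was 195, 174, 177 and 198 CPM, and in Stroma 85.8, 115, 183 and 228 CPM. NKT was thus even across libraries and Stroma was not, and Stroma was above NKT in M5 and M6. NK cells had Ifit1 at 49.5, 47.6, 23.2 and 18.7 CPM, lower in M5 and M6 than in the others. Ifit2 was highest in Myeloid in all 4 libraries, at 52.2, 64.7, 64.0 and 53.3 CPM, while Stroma had 10.7, 12.2, 17.2 and 18.8 CPM. Ifit3 (69.5 CPM) was highest in Stroma and Ifit3b (17.5 CPM) in NKT, and both were lowest in NK cells. The transcript end of Ifit3 is in part like Ifit3b, with 14.9% of its 50-base words also present in Ifit3b. At the end of Ifit3b, 1.77% of the words were present in another gene. Some reads of this pair may therefore have been shared or lost.

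The OAS genes encode sensors of double-stranded RNA that start the degradation of RNA in the cell, together with OAS-like proteins. Oasl2, the most abundant, was highest in Stroma within every library, at 85.7, 103, 160 and 157 CPM, and in NKT it was 10.1, 14.6, 6.39 and 14.9 CPM. Oasl1, which holds back translation of Irf7, showed another order, with DC at 92.4, 129, 128 and 132 CPM and Myeloid at 97.9, 104, 99.8 and 98.3 CPM. These ranges overlapped, and both lay above the 17.3, 8.11, 7.99 and 12.3 CPM of NKT. Oas1a, Oas2 and Oas3 were highest in Myeloid, at 52.7, 18.4 and 54.0 CPM. For Oas1a, 56.1% of the words at its transcript end were present in other genes, above all in Oas1g, and its counts are uncertain to that extent.

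The most abundant of the nucleic acid sensors was Zbp1, which differed by less than 3-fold between labels. Zbp1, a sensor that can start necroptosis, was at 264, 219, 322 and 291 CPM in NKT, 248, 262, 314 and 249 CPM in Myeloid and 224, 246, 399 and 360 CPM in Stroma. These labels overlapped, and NKT was highest in only 1 of 4 libraries. In NK cells Zbp1 was at 128, 103, 103 and 92.9 CPM, the lowest label in all 4 libraries. Dhx58 (LGP2), a helper of the RNA sensors, was highest in Myeloid in every library, at 34.5 to 47.7 CPM (M6 and M5) against 9.75 to 12.7 CPM (M2 and M5) in Stroma and 7.11 to 10.3 CPM (M6 and M1) in NK cells. Ifih1 (MDA5) was highest in Myeloid (62.2 CPM) and Eif2ak2 (PKR), the kinase that halts translation, in Stroma (71.0 CPM).

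Irf7, the factor that amplifies the production of type I interferon, was at 335, 394, 401 and 333 CPM in Myeloid and at 329, 336, 295 and 283 CPM in DC. Myeloid was the highest label in all 4 libraries, by a small margin in M1. T cell EFF was the lowest in all 4, at 99.8, 87.9, 101 and 95.2 CPM. Irf9 and Stat2, the DNA-binding partners of the type I response, were highest in NKT and DC, with Irf9 between 43.0 CPM in NK cells and 81.1 CPM in NKT, and Stat2 between 21.8 CPM in NK cells and 67.7 CPM in DC.

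Isg15 encodes a ubiquitin-like protein that is attached to other proteins. Its level in Myeloid was 527, 633, 769 and 747 CPM and in NK cells 137, 112, 88.0 and 104 CPM. Myeloid was the highest and NK cells the lowest label within every library, and the ranges were far apart. Stroma (262, 276, 470 and 518 CPM), NKT (359 CPM over all libraries) and DC (335 CPM) lay between them. Usp18, which removes ISG15 and dampens the type I receptor, was highest in Stroma (53.0 CPM), and Trim25, a ubiquitin ligase of RNA sensing, in DC (69.1 CPM).

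Parp14, Parp9 and Dtx3l, which attach ADP-ribose or ubiquitin, formed the only 1 of the 9 roles in which Stroma was the lowest label over all cells. Parp14 was at 121, 161, 143 and 148 CPM in NKT and 109, 133, 171 and 150 CPM in Myeloid, which overlapped. In Stroma it was at 36.9, 44.3, 72.1 and 68.7 CPM. The sum of the 3 genes was 278 CPM in NKT, 249 in Myeloid, 240 in T cell MEM, 128 in NK cells and 120 in Stroma, and in M5 and M6 Stroma was above NK cells.

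Among restriction factors, Ifitm3 was at 2614, 2773, 3749 and 3272 CPM in Stroma and at 2789, 3057, 2804 and 2196 CPM in Myeloid. Myeloid was higher in M1 and M2 and Stroma in M5 and M6. In NK cells Ifitm3 was at 556, 518, 370 and 347 CPM, and in NKT, which was high for many other genes, it was at 542, 381, 438 and 409 CPM. At the transcript end of Ifitm3, 14.0% of the words were present in other genes, more in Gm7676 than in any other, so its counts are uncertain to that extent. Bst2 was highest in Stroma in every library, at 846, 903, 1351 and 1299 CPM, followed by DC at 702 CPM over all libraries. Bst2 also marks plasmacytoid dendritic cells, and DC carried other plasmacytoid genes. Rsad2 (viperin), which makes a chain-terminating nucleotide, was highest in Myeloid within every library, at 261, 425, 426 and 372 CPM. Stroma had 33.8, 48.0, 67.2 and 92.7 CPM and NK cells 44.5, 32.2, 20.8 and 32.1 CPM. Cmpk2, the neighbour of Rsad2 that prepares its substrate, was also highest in Myeloid, at 40.6 CPM.

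Ifi44 was at 185, 187, 177 and 138 CPM in Myeloid and at 23.1, 17.8, 22.4 and 20.1 CPM in NKT. Lymphoid labels separated, since ILC (85.1 CPM) and NK cells (70.0 CPM) lay above T cell MEM (31.2 CPM), T cell EFF (25.7 CPM) and NKT (20.9 CPM), although NK cells were the lowest label for most other genes. Ifi35 spanned 60.5 CPM in Stroma to 119 CPM in DC. Rtp4 was highest in Myeloid (158 CPM) and Xaf1, which promotes cell death, in Stroma (85.2 CPM).

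The 7 interferon-inducible GTPases, which coat and open vacuoles that hold pathogens, had their highest sum in Stroma at 1830 CPM, ahead of Myeloid at 1444 CPM in all 4 libraries and of NKT at 1351 CPM. Gbp2 was at 428, 523, 749 and 659 CPM in Stroma and at 78.7, 93.9, 68.8 and 67.9 CPM in NK cells. Iigp1 had the widest range of the list, with 262, 310, 551 and 503 CPM in Stroma against 23.1 to 37.3 CPM (M6 and M1) in NK cells. For both genes Stroma was the highest label within every library. Gbp3 was highest in Stroma (276 CPM), Gbp5 and Irgm1 in Myeloid (88.1 and 215 CPM), and Igtp in NKT (309 CPM). Gbp7 showed how the mix of libraries enters a pooled value. It was highest in NKT over all cells (316 CPM, Stroma 304 CPM), but within each library Stroma was higher, at 239, 294, 427 and 378 CPM against 223, 243, 341 and 366 CPM. Of 15687 Stroma cells, 6300 and 5103 came from M1 and M2, where Gbp7 was lower in both labels.

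Contrasts between labels were called by size. A gene was called where its log2 ratio, with 1 CPM added, was at least 2-fold in the same direction in each of the 4 libraries, among genes with at least 10 CPM in either label. Between Myeloid and T cell EFF, 19 of 37 genes (51.4%) were called higher in Myeloid and 0 lower, beside 10.6% higher and 5.13% lower of all genes. Of the 19, Oas2 (18.4 against 4.28 CPM) and Cmpk2 (40.6 against 9.97 CPM) passed the minimum only through Myeloid, where they were high, as did Ifit3b, which was not called. Among the 34 genes with at least 10 CPM in both labels, 17 were called higher and 0 lower, beside 6.16% and 3.89% of all genes that reached it in both, a restriction added after seeing the data. The median log2 ratio over the 37 genes was 1.47 for the list and -0.17 for all genes. All 37 genes were higher in Myeloid within every library, a count with no share over all genes beside it. The largest difference was that of Rsad2, at 2.94, 4.72, 2.70 and 3.27 on the log2 scale, followed over all cells by Oasl1 (2.71) and Ifi44 (2.66). The smallest were those of Ifi35 (0.22) and Irf9 (0.27).

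DC was below Myeloid for most genes. Of 37 genes 0 were called higher and 4 lower in DC (Rsad2, Rtp4, Cmpk2 and Oas3), beside 3.52% higher and 5.14% lower of all genes. The median log2 ratio was -0.85, against 0.01 for all genes, and 6 genes were above 0 over all cells, led by Bst2 (0.61) and Ifi35 (0.46). The count of 4 was 8 without M2. Ifit3b and Oas2 passed the minimum only through Myeloid, where they were higher, and neither was called. Of the 35 genes that reached it in both labels, 0 were called higher and 4 lower, beside 1.90% and 2.93% of all such genes. The median log2 ratio of the 35 genes was -0.74.

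Stroma and Myeloid had nearly equal sums over all cells, to which the genes contributed unequally. In Stroma 0 of 37 genes were called higher and 6 lower (Rsad2, Ifit2, Dhx58, Gbp5, Parp14 and Oasl1), 16.2% of the list, beside 12.0% higher and 18.0% lower of all genes. All 37 had at least 10 CPM in both labels, and of all genes that did, 7.64% were higher and 7.88% lower. The log2 ratio ran from -2.80 for Rsad2 to 1.12 for Bst2, and it was above 0 for 14 genes. Without M1, 1 gene was called higher in Stroma.

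No gene of the list was called in either of the pairs of lymphoid labels that were compared. Between NK cells and T cell EFF, 34 genes were compared and 0 were called in either direction, beside 2.33% of all genes higher in NK cells and 3.20% lower. The median log2 ratio was -0.40, against -0.07 for all genes. Ifit2 and Dhx58 passed the minimum only through T cell EFF, where they were higher. Over the 32 genes that reached it in both labels, the median was -0.39. NK cells were lower for most genes, led by Iigp1 (-1.26) and Igtp (-0.95), but higher over all cells for 5, led by Ifi44 (1.41), Oasl1 (1.13) and Irf7 (0.64). Without M5, 1 gene was called higher in NK cells. The macrophage markers were at 171 CPM in NK cells and 449 CPM in T cell EFF (4 of 4 found in both), the fibroblast markers at 69.7 and 132 CPM (3 of 3) and the T cell markers at 50.9 and 1800 CPM (3 of 3), and their part was not tested. Between ILC and NK cells, 35 genes were compared and 0 were called, beside 1.97% higher and 0.0515% lower in ILC of all genes. All 35 were nonetheless higher in ILC over all cells, from Ifi35 (0.03) to Iigp1 (1.24). The median was 0.37, against 0.00 for all genes. For 27 of the 35 genes the sign was the same in each library, a count with no share over all genes beside it. Ifit2, Dhx58 and Cmpk2 passed the minimum only through ILC, where they were higher. Over the 32 genes that reached it in both labels, the median was 0.33. Of these 32, 0 were called, beside 0.718% higher and 0.0414% lower of all genes that did. Without M1 or without M2, 1 gene was called higher in ILC. Markers of other cells were also higher in ILC. T cell markers were at 299 CPM in ILC and 50.9 CPM in NK cells (3 of 3 found in both), CD8 T cell markers at 122 and 14.2 CPM (2 of 2), macrophage markers at 672 and 171 CPM (4 of 4) and fibroblast markers at 161 and 69.7 CPM (3 of 3). The NK cell markers were lower in ILC, at 647 against 861 CPM (3 of 3). Their part in this difference was not tested.

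Within a label, the spread between libraries was called where the highest library was at least 2-fold above the lowest, among genes with at least 10 CPM. In Stroma 7 of 37 genes (18.9%) were called, namely Rsad2, Ifit1, Gbp5, Ifit3b, Ifit3, Iigp1 and Irgm1, beside 0.924% of all genes. The median ratio of highest to lowest library was 1.77 for the list and 1.14 for all genes. Every gene of the list was highest in M5 (23 genes) or M6 (14 genes), whereas of all genes 26.1% were highest in M5, 17.5% in M6, 39.6% in M1 and 16.8% in M2. The lowest library was M1 for 33 genes and M2 for 4, with no share over all genes beside these counts. The genes of the IFIT family and Rsad2 were highest in M6, and 7 of 7 GTPases were highest in M5.

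**Figure D3:**
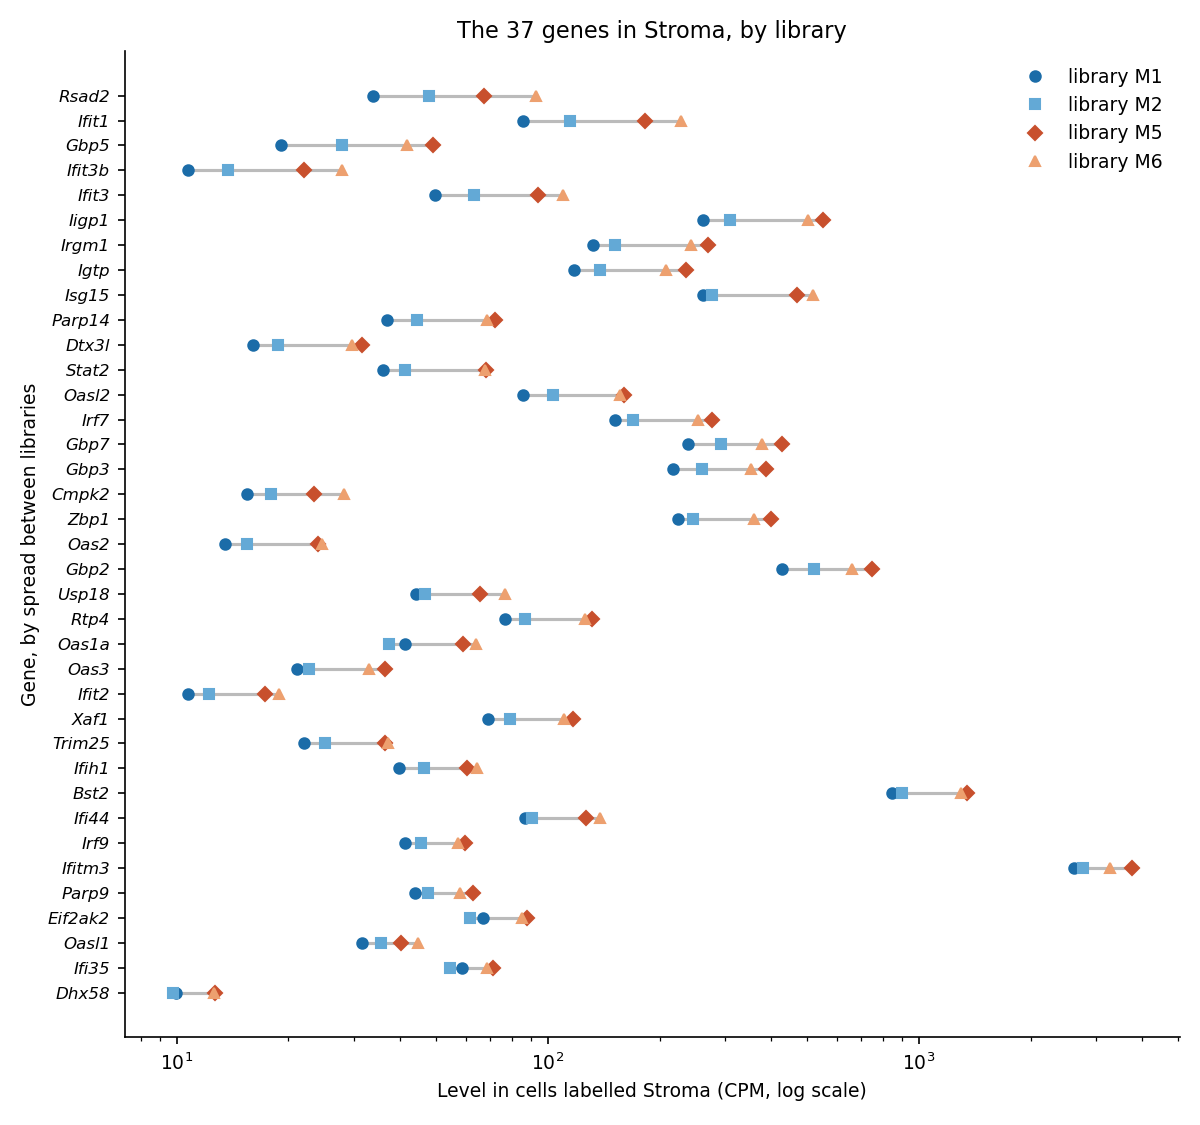
Level of the 37 genes in cells labelled Stroma, in CPM on a log scale, with 1 point for each library and genes ordered by the ratio of the highest to the lowest library. For all 37 genes the points of M5 and M6 lie to the right of those of M1 and M2. The ratio is largest for Rsad2 (33.8 to 92.7 CPM) and Ifit1 (85.8 to 228 CPM).

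The difference was present throughout the label. Among Stroma cells without a UMI of Ptprc the sums were 6611, 7230, 10648 and 9996 CPM, and among those without a UMI of the fibroblast gene Col3a1 they were 5290, 6228, 9703 and 8956 CPM. In cells with a UMI of Col3a1 they were 7473, 8192, 11850 and 11102 CPM. With at least 40000 UMIs in a cell they were 5819, 6714, 9839 and 9030 CPM, with 10000 to 40000 UMIs 8983, 9201, 13906 and 13403 CPM, and below 10000 UMIs 4835, 4637, 7956 and 7799 CPM, so the level also differed with the depth of a cell. In each of these subsets both M5 and M6 were above both M1 and M2. The log2 ratio of M5 to M1 was 0.70 over all cells and ran from 0.63 (10000 to 40000 UMIs) to 0.88 (without a UMI of Col3a1) over these subsets, with 0.69 without a UMI of Ptprc. Markers of several cell types were higher in both M5 and M6 than in both M1 and M2. Macrophage markers were at 16.1, 15.5, 20.4 and 18.2 CPM in Stroma, summed over 4 of 4 markers, and T cell markers were at 5.34, 5.91, 9.32 and 8.10 CPM, summed over 3 of 3. Ptprc was at 7.03, 6.37, 9.66 and 8.90 CPM, and fibroblast markers were at 1273, 1301, 1331 and 1378 CPM, summed over 3 of 3. NK cell markers (3.60, 3.26, 4.08 and 4.21 CPM, 3 of 3) and B cell markers (0.722, 0.522, 1.28 and 1.01 CPM, 2 of 2) had the same order of the pairs of libraries. Other lists did not, namely CD8 T cell (2.81, 2.38, 3.83 and 2.26 CPM), dendritic cell (2.05, 2.16, 2.06 and 2.04 CPM), mast cell (0.913, 0.536, 0.979 and 0.572 CPM) and plasmacytoid markers (0.157, 0.410, 0.121 and 0.116 CPM). Within the sums single genes also had another order, such as C1qa (3.47, 2.92, 2.98 and 1.93 CPM) and Dcn (413, 534, 454 and 482 CPM). The part of these markers was not tested.

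In none of the other 7 labels were all genes highest in the same pair of libraries. In Myeloid 2 of 37 genes were called (Gbp5 and Cmpk2), beside 5.29% of all genes, although M1 was the lowest library for 24 genes, beside 27.1% of all genes. Gbp5 in Myeloid was at 50.6, 70.8, 106 and 110 CPM, and Cmpk2 was at 44.8, 58.3, 39.8 and 28.4 CPM, so Gbp5 was lowest in M1 and Cmpk2 in M6. Markers differed between these libraries too, with T cell markers in Myeloid at 234, 192, 353 and 302 CPM (3 of 3 found), fibroblast markers at 239, 171, 67.5 and 99.2 CPM (3 of 3 found) and macrophage markers at 7978, 8221, 8497 and 7288 CPM (4 of 4 found), among which C1qa was at 1545, 1248, 959 and 631 CPM. Their part was not tested. In ILC 0 of 35 genes were called, beside 2.29% of all genes.

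In NK cells 5 of 32 genes were called (Ifit1, Ifit3, Oasl2, Ifih1 and Rsad2), beside 2.31% of all genes, and M1 was the highest library for 19, beside 28.2% of all genes. Ifit3 was at 22.6, 23.5, 8.16 and 4.28 CPM, low in the libraries where Stroma was high. Macrophage markers were also higher in M1 and M2, at 275, 237, 125 and 99.8 CPM in NK cells (4 of 4 found). So were fibroblast markers, at 102, 120, 37.9 and 46.2 CPM (3 of 3 found). T cell markers had another order, at 57.2, 43.5, 57.4 and 44.6 CPM (3 of 3 found). The part of these markers was not tested.

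In T cell EFF 7 of 34 genes were called (Rsad2, Ifit1, Ifi44, Iigp1, Ifit2, Oasl1 and Ifit3), beside 4.91% of all genes, and M2 was the lowest library for 26, beside 27.2% of all genes. Rsad2 was at 33.1, 15.1, 64.6 and 37.5 CPM there and Ifit1 at 41.7, 22.7, 62.9 and 52.8 CPM. Macrophage markers in this label were at 402, 300, 604 and 402 CPM, also lowest in M2 and highest in M5. Fibroblast markers were at 225, 154, 39.3 and 155 CPM, lowest in M5. T cell markers were at 1521, 2014, 1894 and 1748 CPM, highest in M2. The part of these markers was not tested.

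In T cell MEM 8 of 35 genes were called, beside 8.96% of all genes, and M5 was the highest library for 20, beside 27.2% of all genes. Iigp1 was at 21.1, 41.7, 113 and 129 CPM there (23, 46, 489 and 499 UMIs), a ratio of 5.86, the widest between libraries among the genes compared in the 8 labels. Macrophage markers in T cell MEM were at 560, 700, 776 and 402 CPM (4 of 4 found) and the CD8 T cell markers Cd8a and Cd8b1 at 1020, 1099, 869 and 733 CPM (both found), lower in M5 and M6, and their part was not tested. In NKT 6 of 36 genes (16.7%) were called, close to the 18.7% of all genes. In DC 9 of 35 genes were called, beside 12.9% of all genes, and M2 was the highest library for 14, beside 21.4% of all genes. Rsad2 in DC was at 27.9, 118, 35.2 and 44.0 CPM and Ifit3 at 14.2, 44.7, 12.7 and 12.8 CPM, in each case with M2 far above the other libraries. Fibroblast markers in DC were at 265, 292, 66.1 and 23.5 CPM (3 of 3 found) and macrophage markers at 499, 641, 650 and 594 CPM (4 of 4 found). The dendritic cell markers Xcr1, Flt3 and Zbtb46 were at 243, 355, 284 and 258 CPM summed (3 of 3 found), highest in M2, with Xcr1 at 152, 254, 167 and 134 CPM, and Tlr3 of the pathway list was at 17.3, 51.3, 12.1 and 13.3 CPM. The part of these markers, and of the mix of dendritic cells they mark, was not tested. These 3 labels were small, with 166 to 433 cells in a library for T cell MEM, 134 to 270 for NKT and 129 to 153 for DC.

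GTPase genes and the other genes of the list did not keep a fixed ratio. The 7 GTPase genes were set against the 28 genes left after Ifitm3 and Bst2 were also taken out. Their ratio was 0.868 in Stroma, 0.652 in NKT, 0.547 in T cell EFF, 0.538 in T cell MEM, 0.442 in ILC, 0.434 in NK cells, 0.425 in Myeloid and 0.391 in DC. In Stroma the ratios were 0.841, 0.910, 0.929 and 0.806, above every library of the other 7 labels. This order depended on leaving out Ifitm3 and Bst2. Against all 30 other genes the ratio was highest in NKT (0.485) and T cell MEM (0.357), and Stroma was at 0.303 (0.275, 0.307, 0.335 and 0.317), close to T cell EFF at 0.301. Against the 28 genes, the ratios in T cell MEM were 0.384, 0.371, 0.515 and 0.659, in NKT 0.514, 0.535, 0.662 and 0.749, and in Myeloid 0.380, 0.362, 0.440 and 0.478. In each of the 8 labels except Stroma and DC (0.405, 0.367, 0.446 and 0.353), both M5 and M6 were above both M1 and M2. Over the 32 pairs of label and library the summed levels had a Pearson correlation of 0.818 on the log2 scale and a Spearman correlation of 0.844, a description over points that share libraries and labels.

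**Figure D4:**
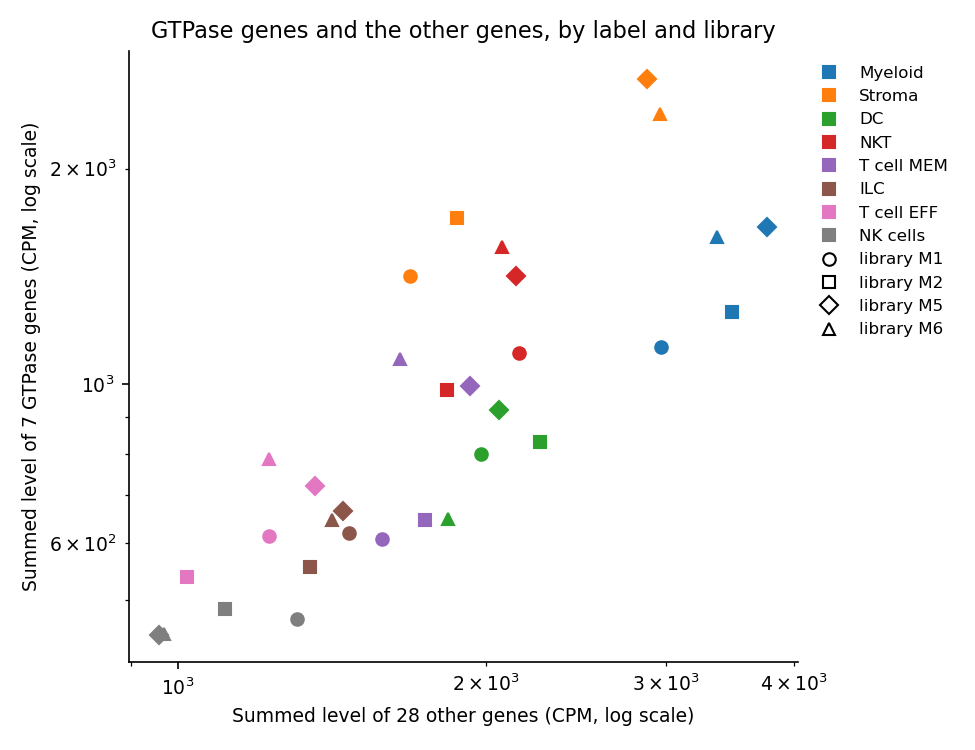
Summed level of the 7 GTPase genes against that of 28 other genes of the list, both in CPM on log scales, for 8 labels (color) in 4 libraries (symbol). Stroma lies highest for a given level of the other genes, with ratios of 0.806 to 0.929, and Myeloid and DC are among the lowest. With Ifitm3 and Bst2 added to the other genes, which is not plotted, NKT is highest at 0.485 and Stroma is at 0.303.

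Cells of a label differed widely among themselves. To compare cells of unequal depth, each cell was thinned at random to 2000 UMIs, which left out 696 shallower cells. The median cell then held 14 UMIs of the 37 genes in Myeloid, 13 in Stroma, 8 in DC, 6 in NKT, 5 in T cell MEM, 4 in ILC, 4 in T cell EFF and 3 in NK cells. The highest cell held 186 in Myeloid and 140 in Stroma. None was found in 7.61% of NK cells (95% exact binomial interval 6.83 to 8.45, counting error only), 1.62% of Stroma cells (1.43 to 1.83) and 0.667% of Myeloid cells (0.39 to 1.07).

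Variance over mean, which would be near 1 if cells of a label differed by sampling alone, was 15.4 in Myeloid, 10.9 in Stroma, 9.16 in DC, 9.03 in NKT, 6.73 in T cell MEM, 5.99 in ILC, 5.26 in T cell EFF and 4.16 in NK cells. This measure also rises with the mean, which had the same order of labels, from 18.4 UMIs in Myeloid to 3.92 in NK cells. It therefore does not rank the labels by how unlike their cells are. The top 10% of cells held 28.1% of these UMIs in Stroma and 34.9% in ILC, the ends of the range over labels. In Stroma the median cell held 11, 12, 19 and 17 UMIs in the 4 libraries, so that the middle of the distribution was higher in M5 and M6, and the share of cells with none was 1.83%, 1.97%, 0.62% and 1.16%.

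**Figure D5:**
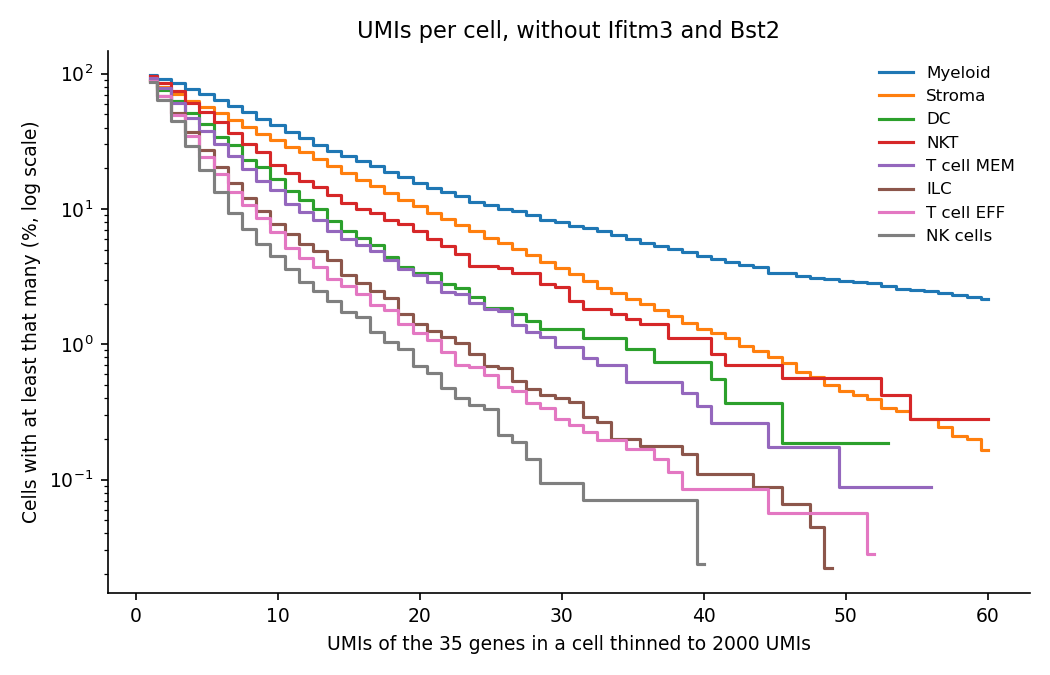
Share of cells (percent, log scale) with at least a given number of UMIs of the 35 genes left without Ifitm3 and Bst2, after each cell was thinned to 2000 UMIs, by label. Myeloid has the longest tail and NK cells the shortest, with medians of 8 and 2 UMIs.

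Ifit1, Ifit3, Rsad2 and Gbp2 were each set against Isg15 within cells, and no gene outside the list was set beside them. Among thinned Stroma cells with a UMI of Isg15, 29.5% had a UMI of Ifit1 (95% interval 28.2 to 30.7), against 6.06% (5.61 to 6.54) of the other Stroma cells. For Rsad2 in Myeloid the shares were 37.2% (34.6 to 39.8) and 11.6% (9.82 to 13.6). In NK cells, where levels were lowest, Ifit1 was found in 10.6% (8.08 to 13.6) of cells with Isg15 and in 1.73% (1.33 to 2.20) of the others. For Ifit1, Ifit3 and Rsad2 the share was higher in the cells with Isg15 in all 8 labels and within all 4 libraries. For Gbp2, which was found in many more cells, the shares were 63.8% and 44.3% in Stroma (95% intervals 62.5 to 65.1 and 43.3 to 45.2), and in T cell MEM and NKT it was higher in 3 of 4 libraries.

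Free RNA can also place UMIs in a cell. No label was one that should lack these genes, so the lowest label is given as a reference. Iigp1 was found in 37.5% of thinned Stroma cells and 3.08% of NK cells, and in 75.6% and 8.91% without thinning, at median depths of 40692 and 5397 UMIs. Isg15 was found in 54.7% of Myeloid cells and 12.3% of NK cells after thinning, and in 78.3% and 28.4% before, with Myeloid at a median of 8027 UMIs. The part of free RNA in these shares was not tested.

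A further 43 genes of the interferon pathway were chosen for their roles as ligands, receptors, signal transducers, regulators and other targets, and 41 of them were in the table. Interferon-gamma (Ifng) was highest in T cell EFF in all 4 libraries, at 278, 278, 391 and 580 CPM, and was 1.26 CPM in Stroma. Type I interferons were hardly captured, with Ifnb1 at 1.26 CPM in Myeloid and 1.25 CPM in Stroma, 1 UMI each for Ifna2 and Ifna4 in the whole table, and 0 for Ifna1 and Ifna5. The interferon-gamma receptor gene Ifngr1 was highest in NKT at 1142 CPM and lowest in Stroma at 42.6 CPM. Likewise the type I receptor gene Ifnar1 was at 224 CPM in T cell MEM and 15.2 CPM in Stroma. The partner chains had another order, with Ifngr2 at 34.7 CPM in Stroma, between 91.1 CPM in DC and 5.16 CPM in NK cells, and Ifnar2 at 36.2 CPM in Stroma, between 106 CPM in Myeloid and 35.2 CPM in T cell EFF.

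By the same call rule, 9 of 30 pathway genes were higher in Myeloid than in T cell EFF (among them Cxcl9, Cxcl10 and Irf5), beside 10.6% of all genes, and 1 was lower (Ifng), beside 5.13%. Tlr7 (16.4 against 1.27 CPM) passed the minimum only through Myeloid, and of the 29 genes that reached it in both labels 8 were higher, beside 6.16%. For Stroma against Myeloid 0 of 32 were higher, beside 12.0%, and 14 lower, beside 18.0%, among them Ifnar1, Ifnar2, Ifngr1, Ifngr2, Jak1 and Jak2. Of the 25 that reached the minimum in both labels 10 were lower, beside 7.88%, these 6 genes included. In NK cells against T cell EFF 0 of 30 were higher, beside 2.33%, and 3 lower (Ifng, Ly6e and Ifi27l2a), beside 3.20%. In DC against Myeloid 1 of 31 was higher (Irf8), beside 3.52%, and 2 lower (Socs3 and Ddx58), beside 5.14%. In ILC against NK cells 1 of 30 was higher (Cxcl9), beside 1.97%, and 0 lower, beside 0.0515%.

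Across libraries of Stroma, 2 of 27 pathway genes were called, the chemokines Cxcl10 (467, 556, 956 and 942 CPM) and Cxcl9 (18.0, 20.9, 36.2 and 42.1 CPM), beside 0.924% of all genes. Irf1, an early target of interferon-gamma, was at 217, 257, 390 and 361 CPM there and the feedback inhibitor Socs1 at 90.5, 89.0, 159 and 153 CPM. All 4 genes were higher in M5 and M6, as the 37 genes were. Of the 27 pathway genes 23 were highest in M5 or M6, beside 43.6% of all genes, and 4 were not (Ifnar1, Irf3, Ptpn2 and Mavs). Ifnar1 was at 14.8, 15.8, 15.3 and 15.1 CPM, while Jak1, among the 23, was at 64.9, 66.0, 68.8 and 70.3 CPM.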

How the data were processed

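Single-cell 3′ libraries (10x Genomics) were made from CD45-enriched cells of CT26 tumors. The authors deposited UMI counts per gene and cell, made with Cell Ranger 3.0.2 on mm10, together with a library name and a cell label for each cell, and kept cells with more than 500 UMIs. The lowest total in the table was 1220 UMIs. Labels had been given by correlation with a reference of immune cells, and no doublet removal is named.

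The genes of the list, the marker and pathway lists and the comparisons were chosen with earlier results of these data known. From the deposited counts, the UMIs of each gene were summed per label and library and divided by all UMIs there (CPM), which compares genes without division by length, as each molecule is counted once at its 3′ end. Labels were contrasted as log2 ratios with 1 CPM added, among genes with at least 10 CPM, and called at 2-fold in every library. The spread between libraries was called at 2-fold. Per-cell values were taken after thinning to 2000 UMIs. Intervals are exact at 95% and cover counting error only. Library names matched no sample label, so no p-value was computed, and the cells of all 4 libraries were used. Values in every library are given for the most abundant gene of each role, the gene of each role that differed most between labels, Isg15 and Irf7. Other genes given by library were chosen after their values were seen. Alternatives covered the cells, genes, libraries, scaling, pseudocount, minimum and thinning depth, and the top 2% of cells by UMIs, where doublets would fall, were left out in one of them. The likeness of transcript ends was measured as the share of 50-base words in the last 500 bases of a transcript that occur in another gene, a step added after seeing the data. Python 3.11.15, numpy 2.4.6, scipy 1.17.1 and matplotlib 3.10.9 were used, and the scripts were tested on simulated counts.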

Additional observations from a re-analysis of the deposited data

How the results depend on the processing

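No value here comes from a test. Labels were contrasted within each library, but treatment groups could not be compared, as the names of the libraries are those of no sample. Of the 5 ratios of summed level between labels, 4 kept their direction under every alternative run, and Stroma over Myeloid did not. On the log2 scale, Myeloid over T cell EFF was 1.45, and it was 1.46 without cells over 10% mitochondrial UMIs, 1.62 without the top 2% of cells by UMIs, 1.87 as a mean over cells, 1.35 without Ifitm3 and Bst2, 1.32 with mitochondrial and ribosomal protein genes left out of the total, 1.63 with median-of-ratios size factors, and 1.37 to 1.51 without 1 library. In the same terms, DC over Myeloid was -0.60, with -0.61 without mitochondrial-rich cells, -0.84 over cells, -0.77 without Ifitm3 and Bst2, -0.57 without those genes in the total, and -0.66 to -0.55 without 1 library. NK cells over T cell EFF was -0.45, with -0.52 without the top cells, -0.36 over cells, -0.32 without Ifitm3 and Bst2, -0.39 with size factors, and -0.54 to -0.36 without 1 library. ILC over NK cells was 0.54, with 0.64 without the top cells, 0.40 over cells, 0.43 without Ifitm3 and Bst2, 0.52 both with the reduced total and with size factors, and 0.47 to 0.60 without 1 library. Stroma over Myeloid was -0.014, with -0.033 without mitochondrial-rich cells, -0.032 without the top cells, -0.15 over cells, -0.30 without Ifitm3 and Bst2, and 0.18, reversed, with the reduced total. It ran from -0.12 to 0.10 without 1 library and was reversed without M1 (0.10) and without M2 (0.05). The cause was not tested.

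The log2 ratio of M5 to M1 in Stroma was 0.70, with 0.68 without mitochondrial-rich cells, 0.69 without the top cells, 0.67 over cells, 0.84 without Ifitm3 and Bst2, and 0.68 both with the reduced total and with size factors. With subsets of cells chosen after seeing the data it was 0.69 without a UMI of Ptprc, 0.88 without and 0.67 with a UMI of Col3a1, and 0.76 with at least 40000 UMIs, 0.63 with 10000 to 40000 and 0.72 below 10000. Variance over mean per cell depends on depth and on the mean by its construction. In Stroma it was 10.9 at 2000 UMIs, 5.92 at 1000, 20.9 at 4000, 301 without thinning, 10.3 without mitochondrial-rich cells, and 10.1 to 11.4 without 1 library, and in Myeloid it was 15.4, 8.27, 21.5 and 177.

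Of the counts of genes, DC lower than Myeloid went from 4 to 2 with a pseudocount of 5 CPM and to 4 to 8 without 1 library. NK cells higher than T cell EFF went from 0 to 1 with size factors and to 0 to 1 without 1 library, as did ILC higher than NK cells and Stroma higher than Myeloid without 1 library. The spread between libraries counted 1 gene in ILC with no minimum. With a pseudocount of 5 CPM it counted 2 in NK cells, 4 in T cell EFF, 1 in Myeloid and 2 in NKT, and with a minimum of 50 CPM it counted 0 in NK cells, 1 in T cell EFF, 1 in Myeloid, 4 in T cell MEM, 1 in NKT and 2 in DC, where fewer genes entered. In Stroma it stayed between 5 and 10. The highest label changed for 7 of 37 genes as a mean over cells, for 4 with size factors, for 5 each without M1 and without M6, for 2 without M2, and for 0 without M5, without mitochondrial-rich cells or without the top cells.

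Counting error was small for sums over a label, but the error from sampling a limited number of cells was not estimated. The 4 libraries, of unknown treatment, also set a limit. In labels of few cells, genes near 10 CPM rest on few molecules.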
